A study of Rattus norvegicus with 2 samples.

Results

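The genes described here are Mbp, Cnp, Mag, Mog, Mobp, Mal, Opalin and Cldn11, which encode structural proteins of the central myelin sheath. They were chosen by name and role, by a rule that uses no measured value but with earlier results of these data known, and make up 8 of the 18049 genes in the expression table. All of them had a row under their own symbol. RNA sequencing was carried out on wild type rat oligodendrocyte precursor cells, which divide and give rise to the myelin-forming cells of the brain, isolated by immunopanning from cortex of pups aged 2 to 4 days. The siHsc70 cells were electroporated with a small interfering RNA against Hsc70, the constitutive HSP70 chaperone encoded by Hspa8, and the siSCR cells with a scrambled one. Both groups then differentiated at 60 nM T3, a thyroid hormone, and the design text places them at day 2 as immature oligodendrocytes. How many pups or cultures contributed was not given in the labels. Each group had 1 library, so the values describe these libraries, no test between the groups was possible, and the intervals given are 95% intervals that cover counting error only. The study asks how HSP70 and the transcription factor SOX10 act in myelin formation. The small interfering RNA against Hsc70 is shown because it defines the treated cells.
siHsc70: tcatgactgtcctcatcaa

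Oligodendrocytes wrap axons in a spiral of their own membrane. In compact myelin the cytoplasm is squeezed out between the layers, and myelin basic protein holds the facing inner surfaces together. Channels of cytoplasm remain at the edges and along the innermost turn next to the axon, where CNP and MAG are found. The genes come on in sequence during differentiation: Cnp is among the earliest, Mbp and Mag follow, and Mog and Opalin are used as markers of mature cells.

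The total estimated count was 18130817 in siHsc70 and 19085626 in siSCR. The targeted gene, Hspa8, stood at 507 CPM (estimated counts per 1e6, scaled for library composition) in siHsc70, against 1399 CPM in siSCR, a ratio of 0.363 (0.354 to 0.371). Reads shared with near-identical copies of Hspa8 were not examined. The 12 oligodendrocyte lineage markers that were examined were all measured, between 6.67 CPM and 1630 CPM in siHsc70 and between 61.9 CPM and 2060 CPM in siSCR. Of these 12, 8 were at least 2-fold lower in siHsc70 and 0 were at least 2-fold higher, by the rule given below. Of all measured genes, 5.14% were lower and 2.29% higher by that rule. Enpp6, an enzyme gene of newly formed oligodendrocytes, was at 6.67 CPM in siHsc70 and 61.9 CPM in siSCR, whereas Olig1, a lineage transcription factor, was at 1359 CPM in siHsc70 and 1207 CPM in siSCR. In bulk RNA, fewer cells of a type and less RNA per cell cannot be told apart.

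The abundant myelin protein genes, Mbp and Cnp foremost, were several-fold lower in siHsc70, while Mog stood at the same level in both libraries. A gene was taken as measured when its mean over the libraries reached 1 CPM, as 13518 genes did, and 6 of the 8 myelin protein genes were among them. A difference is log2(CPM + 1) in siHsc70 minus siSCR, and a gene was counted as lower or higher when that difference was at least 2-fold. By that rule 5 of the 6 were lower and 0 were higher, where 5.14% of all measured genes were lower and 2.29% higher. The same 5 genes, Mbp, Mag, Cnp, Mobp and Cldn11, were also past a 3-fold rule that 1.92% of measured genes passed. The median difference of the 6 was -1.998, beside -0.0034 for all measured genes. Mal and Opalin lay under the minimum and are described by their counts.

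**Figure D1:**
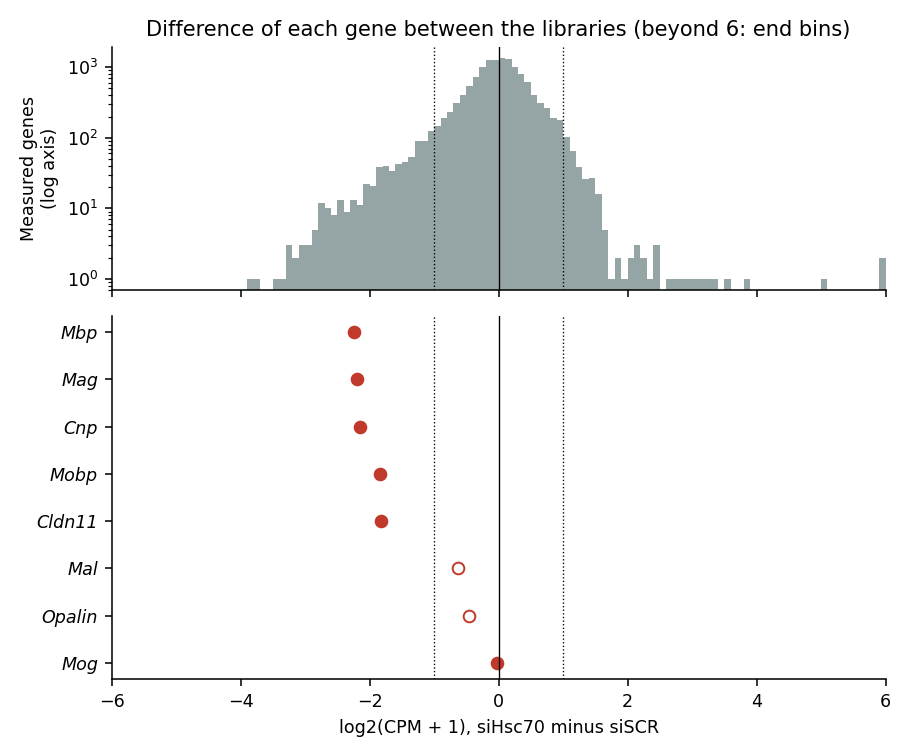
Upper panel: number of measured genes (log axis) in bins of the difference in log2(CPM + 1), siHsc70 minus siSCR. Lower panel: the same difference for each myelin protein gene, filled where measured and open where below the minimum, with dotted lines at 2-fold; 5 genes lie between -2.25 and -1.83, and Mog lies at -0.019.

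Mbp encodes myelin basic protein, the adhesive of the cytoplasmic membrane faces. It had a count of 7447 in siHsc70 and 37873 in siSCR, or 414 CPM (405 to 424) in siHsc70 and 1968 CPM (1949 to 1988) in siSCR. The level in siHsc70 was lower by 4.75-fold (4.64 to 4.87), and 0.570% of measured genes had a difference as low. The transcript was still abundant in siHsc70 cells, where it ranked 356 among all genes by TPM (transcripts per 1e6, a level corrected for transcript length), against rank 24 in siSCR cells.

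Mobp encodes myelin-associated oligodendrocyte basic protein, another small basic protein of compact myelin. It was scarce in both libraries, with a count of 10 in siHsc70 and 88 in siSCR. These are 0.556 CPM (0.267 to 1.02) in siHsc70 and 4.57 CPM (3.67 to 5.64) in siSCR, and the intervals do not overlap. Of the 8 genes Mobp had the lowest ratio of CPM, 8.23-fold lower in siHsc70, but the interval of 4.27 to 17.8 is wide because it rests on a count of 10.

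Cnp encodes the cyclic nucleotide phosphodiesterase of the cytoplasmic channels of myelin. It had a count of 6141 in siHsc70 and 29354 in siSCR, or 342 CPM (333 to 350.1) in siHsc70 and 1526 CPM (1508 to 1543) in siSCR. Cnp was thus 4.47-fold (4.35 to 4.59) lower in siHsc70. Mag encodes a sialic acid binding adhesion protein of the innermost myelin turn, facing the axon. Its count was 811 in siHsc70 and 4030 in siSCR, or 45.1 CPM (42.0 to 48.3) in siHsc70 and 209 CPM (203 to 216) in siSCR. Mag was 4.64-fold (4.31 to 5.01) lower in siHsc70, so the folds of both genes of the cytoplasm-filled compartments lay close to that of Mbp.

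Cldn11 encodes claudin 11, the tight junction protein that seals the myelin layers. It had a count of 1093 in siHsc70 and 4198 in siSCR, or 60.8 CPM (57.2 to 64.5) in siHsc70 and 218 CPM (212 to 225) in siSCR. Cldn11 was 3.59-fold (3.36 to 3.84) lower in siHsc70, the smallest fold of the 5 lower genes. Mal encodes a raft-associated membrane protein used in sorting proteins to the myelin membrane. Its count was only 5 in siHsc70 and 19 in siSCR, at 0.278 CPM (0.0903 to 0.649) in siHsc70 and 0.988 CPM (0.595 to 1.54) in siSCR. The Mal ratio of siHsc70 to siSCR was 0.282 with a counting interval of 0.0822 to 0.780, which leaves the size of the difference poorly fixed.

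Mog encodes an immunoglobulin-like protein on the outermost face of the sheath. It had an estimated count of 188 in siHsc70 and 204 in siSCR, at 10.5 CPM (9.01 to 12.1) in siHsc70 and 10.6 CPM (9.20 to 12.2) in siSCR. The ratio was 0.986 (0.804 to 1.21), and a fold of the size seen for Mbp or Cnp lies far outside that interval. Mog was also the 1 gene of the 8 whose estimated counts are not whole numbers. Opalin encodes a small glycosylated membrane protein of mature oligodendrocytes. It had a count of 4 in siHsc70 and 13 in siSCR, at 0.222 CPM (0.0606 to 0.570) in siHsc70 and 0.676 CPM (0.360 to 1.16) in siSCR. The Opalin ratio of 0.329 has an interval of 0.0782 to 1.07 that holds 1, so no difference was detectable at this depth.

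Levels of different genes were compared on the deposited TPM. The order was the same in both libraries: Mbp, Cnp, Cldn11, Mag, Mog, Mobp, Mal, Opalin. Mbp was at 401 TPM in siHsc70 and 2091 TPM in siSCR. Cnp was at 288 TPM in siHsc70 and 1420 TPM in siSCR. Together these 2 genes made up 86.5% of the summed TPM of the 8 genes in siHsc70 and 88.7% in siSCR, so the sum mostly reports on them. The sum was 797 TPM in siHsc70 and 3959 TPM in siSCR, which is 0.0797% of all TPM in siHsc70 and 0.396% in siSCR. Mog took a larger part of it in siHsc70, 1.02%, than in siSCR, 0.241%. The ratio of Mbp to Mog in TPM was 49.3 in siHsc70 and 219 in siSCR.

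Counting error separated most neighbours in this order but not the scarcest ones. In siHsc70, Mobp at 0.44 TPM (0.211 to 0.809), Mal at 0.24 TPM (0.0779 to 0.560) and Opalin at 0.16 TPM (0.0436 to 0.410) had overlapping intervals. In siSCR, Mal at 0.93 TPM (0.560 to 1.45) overlapped Opalin at 0.54 TPM (0.288 to 0.923), whereas Mobp at 6.43 TPM (5.16 to 7.92) stood clear of both and below Mog at 9.56 TPM (8.29 to 11.0). By rank among all genes of a library the lower genes moved down and Mog kept nearly the same place. Cnp ranked 554 in siHsc70 and 59 in siSCR, Cldn11 ranked 3041 in siHsc70 and 657 in siSCR, and Mag ranked 5238 in siHsc70 and 1054 in siSCR. Mog ranked 9855 in siHsc70 and 9867 in siSCR.

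**Figure D2:**
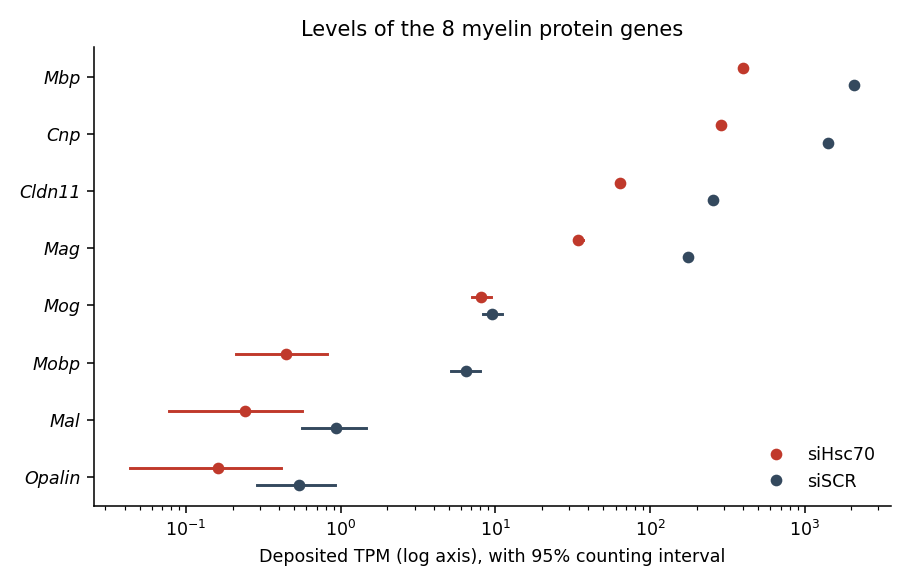
Deposited TPM (log axis) of each myelin protein gene in siHsc70 (upper point of each pair) and siSCR (lower point), with 95% counting intervals as bars. The Mog intervals overlap, from 7.01 to 9.38 TPM in siHsc70 and from 8.29 to 11.0 TPM in siSCR, and the bars widen for Mobp, Mal and Opalin.

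How far the genes differed among themselves was read from the ratio of the folds by which they were lower in siHsc70, with an interval from the counts of both genes. All 28 pairs were compared, and the interval left out 1 in 11 of them. Mog took part in 6 of those 11, out of its 7 pairs. The Mbp fold was 4.69 times the Mog fold (3.84 to 5.72), and the interval of the remaining Mog pair, with Opalin, held 1. Of the 21 pairs without Mog, 5 had an interval that left out 1, and Cldn11 took part in 4 of these. The fold of Mbp was 1.32 times that of Cldn11 (1.23 to 1.42), the fold of Mag 1.29 times (1.17 to 1.43), that of Cnp 1.24 times (1.16 to 1.34) and that of Mobp 2.29 times (1.19 to 4.42). In the fifth pair the Cnp fold was 0.940 times the Mbp fold (0.906 to 0.975). Mbp and Mag were within counting error of each other, at a ratio of folds of 1.02 for Mbp over Mag (0.945 to 1.11). Whether these spreads exceed those between cultures could not be tested.

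The deposited table allows another readout, the transcript length behind each value. An estimated count divided by its FPKM (fragments per kilobase and 1e6 fragments) and by the library's total count gives the length by which the gene was scaled in that library. Where a program weighs the isoforms of a gene by their estimated share, this length moves with that share. Over 13494 measured genes the ratio of lengths, siHsc70 over siSCR, had a 5th percentile of 0.964 and a 95th percentile of 1.03, and it was within 0.01 of 1 for 74.1% of them.

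Cnp, Mbp, Mag and Cldn11 were all within 0.01 of 1. The implied length of Cnp was 2254 bases in siHsc70 and 2255 bases in siSCR, and that of Mbp 1965 bases in siHsc70 and 1976 bases in siSCR. Mag had 2499 bases in siHsc70 and 2495 bases in siSCR, and Cldn11 1799 bases in both. For these 4 transcripts the length therefore entered both libraries nearly alike. Among 32 measured genes of a list of other myelin genes the ratio ran from 0.973 to 1.03.

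Mobp stood apart. Its implied length was 2398 bases in siHsc70 and 1492 bases in siSCR, a ratio of 1.61 (1.57 to 1.65 from the rounding of FPKM to 2 decimals), and 0.0371% of measured genes had a ratio as high. On deposited TPM Mobp was 14.6-fold lower in siHsc70, against 8.23-fold on CPM. Only part of that gap goes with its length, since the change of scale alone moved Cnp to 4.92-fold on TPM, against 4.47-fold on CPM. The siHsc70 length rests on a count of 10, few fragments for telling isoforms apart. Among 470 genes with a count of 5 to 20 in their lower library, 7 (1.49%) had a ratio at least as far from 1 as Mobp. The table does not record which transcripts of Mobp carried these fragments.

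The length of Mog also moved, to 2457 bases in siHsc70 against 2323 bases in siSCR, a ratio of 1.057 (1.055 to 1.06 from rounding), with 2.71% of measured genes as high. On deposited TPM Mog was at 8.13 in siHsc70 and 9.56 in siSCR, a difference of -0.21 on the log2(TPM + 1) scale. The median measured gene differed by -0.13 on that scale, and relative to it Mog differed by -0.079. For Mal, rounding of its small FPKM alone spans a length ratio of 0.986 to 1.10, and for Opalin 0.972 to 1.14, so nothing was read from their lengths.

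**Figure D3:**
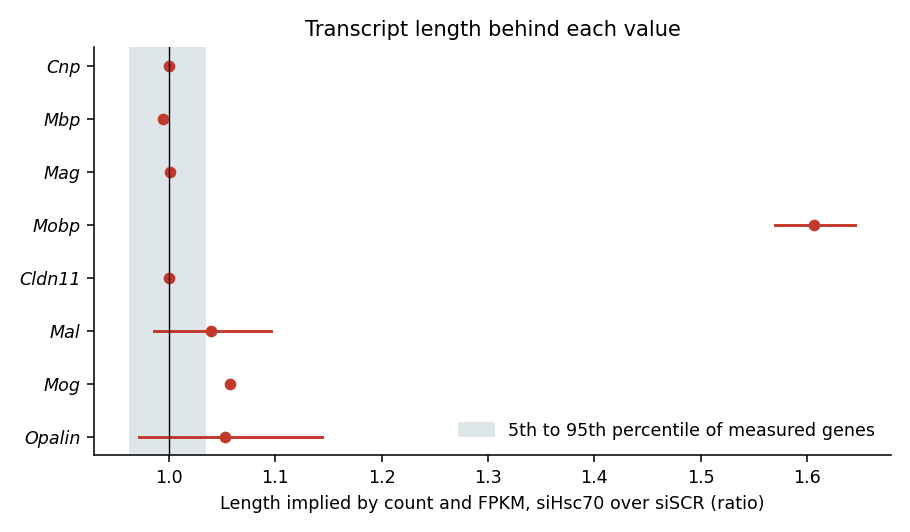
Ratio of the transcript length implied by count and FPKM, siHsc70 over siSCR, for each myelin protein gene, with bars for the rounding of FPKM. The shaded band holds the 5th to 95th percentile of measured genes (0.964 to 1.03); Mobp lies at 1.61 and Mog at 1.057.

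Several of these genes are known targets of MYRF and SOX10, transcription factors that bind near myelin genes and drive their transcription. Myrf was at 62.8 CPM in siHsc70 and 446 CPM in siSCR, 7.09-fold (6.66 to 7.55) lower in siHsc70. Sox10 was at 98.9 CPM in siHsc70 and 563 CPM in siSCR, 5.69-fold (5.41 to 5.98) lower. Promoter windows, from 250 bases before to 50 bases after the start, were taken from RefSeq (build GRCr8) for 7 of the 8 genes, with 2 windows for Mbp. They were searched on both strands for the MYRF letters CTGGCAC or CTGGTAC, and for the SOX letters, CAAAG or CAATG preceded by any 2 letters drawn from A and T. The windows were also searched for the E-box letters CAGCTG or CAGATG that OLIG2, a lineage transcription factor, can bind. No motif contains another, and CAGCTG, which reads alike on both strands, was counted once. A match of letters is a description and not a binding site, and binding was not measured.

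The MYRF letters were found in the windows of 5 of the 7 genes, Cnp, Mag, Cldn11, Mal and Opalin. They occur in 6.78% of all 33469 RefSeq windows of this length and in 7.05% of the 10645 measured genes that have one. The stretches that hold them are shown because this motif was found in the most genes, 5′ to 3′ on the strand of the gene, with the match in capitals. In Cldn11, Mal and Opalin the match is on the opposite strand, so its reverse complement is seen.
Cnp, chr10:86011355-86011411, plus strand: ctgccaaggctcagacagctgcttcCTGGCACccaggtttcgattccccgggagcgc
Mag, chr1:95291107-95291163, minus strand: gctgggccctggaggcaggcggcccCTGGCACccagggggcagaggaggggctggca
Cldn11, chr2:114149628-114149684, minus strand: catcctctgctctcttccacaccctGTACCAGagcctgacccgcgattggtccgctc
Mal, chr3:135341518-135341574, minus strand: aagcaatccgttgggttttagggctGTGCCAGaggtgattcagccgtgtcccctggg
Opalin, chr1:249858191-249858232, minus strand: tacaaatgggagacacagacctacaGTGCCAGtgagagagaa

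Relative to the start, the match begins at -124 in Cnp, -94 in Mag, -120 in Cldn11, -126 in Mal and -17 in Opalin. The annotated span of the gene reaches upstream of the start used in Mag, where it covers 27 bases of the stretch, and in Opalin, where it covers all 42. Genes with the letters include lower ones (Cnp, Mag, Cldn11) and scarce ones (Mal, Opalin). Mbp and Mobp, which were also more than 3-fold lower in siHsc70, have no such match in these windows. In the list of other myelin genes the letters were found in 2 of 23 measured genes with a window (8.70%), and in 0 of the 15 of these that were at least 2-fold lower.

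The SOX letters were found in 4 of the 7 genes, Cnp, Mbp, Mobp and Opalin, against 25.5% of windows and 16.3% of measured genes. In the list of other myelin genes the SOX letters were found in 2 of 23 measured genes with a window (8.70%). Of the 15 of these that were at least 2-fold lower, 1 (6.67%) had them. Part of the Mobp window is shown because it holds 5 matches, all on the opposite strand.
Mobp, chr8:128746982-128747111, plus strand: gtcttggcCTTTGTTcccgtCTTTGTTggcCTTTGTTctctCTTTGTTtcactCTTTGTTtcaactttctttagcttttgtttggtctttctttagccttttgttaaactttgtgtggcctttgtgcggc

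The 5 Mobp matches lie between -242 and -191 bases from the start. The E-box letters were found in 3 of the 7 genes, Cnp, Mbp and Opalin, against 29.1% of windows and 25.9% of measured genes. Among the other myelin genes, 8 of 23 (34.8%) had the E-box letters, and 4 of the 15 lower ones (26.7%). In Cnp they run from -134 to -129, just upstream of the MYRF letters.

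**Figure D4:**
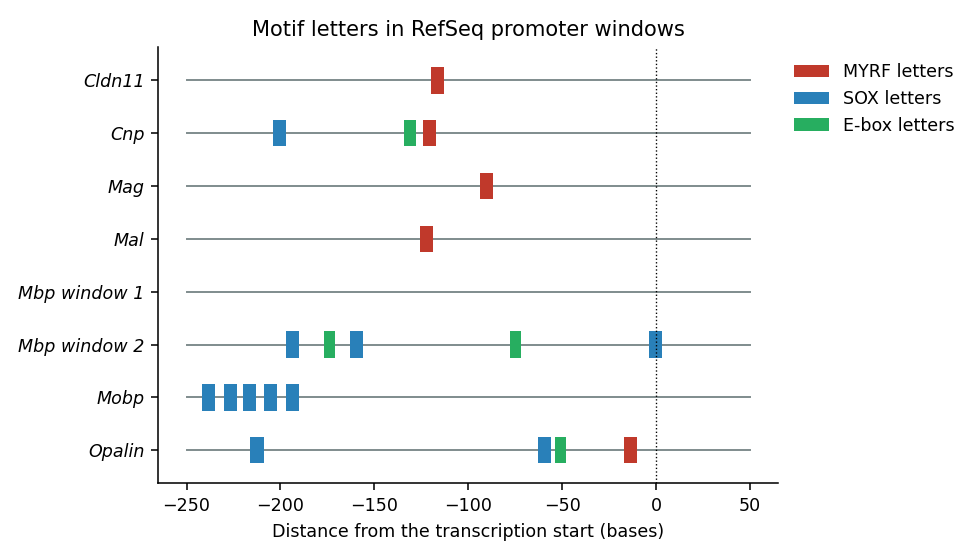
Positions of the MYRF, SOX and E-box letters in the RefSeq promoter windows, in bases from the transcription start (dotted line). Cnp, Mag, Cldn11 and Mal hold MYRF letters between -126 and -88, and Mobp holds 5 SOX matches between -242 and -191.

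Other genes of myelin and of myelinating oligodendrocytes were mostly lower in siHsc70 too. Of 32 measured genes in that list, 18 were lower by 2-fold or more and 0 were higher, against the 5.14% and 2.29% of all measured genes, and the median difference was -1.61. Fa2h, whose product hydroxylates myelin lipids, was at 6.84 CPM in siHsc70 and 62.3 CPM in siSCR. Tspan2, a myelin tetraspanin, was at 29.3 CPM in siHsc70 and 206 CPM in siSCR. Ugt8, the enzyme gene of galactosylceramide, was at 46.0 CPM in siHsc70 and 320 CPM in siSCR. On the log2(CPM + 1) scale these 3 differed by more than any of the 8 myelin protein genes, at -3.01 for Fa2h, -2.78 for Tspan2 and -2.77 for Ugt8.

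Over these 2 libraries, the listed genes with a difference closest to the median of the measured myelin protein genes were Omg, Gal3st1 and Gjc3. Omg, an oligodendrocyte glycoprotein gene, differed by -2.02, with 26.2 CPM in siHsc70 and 109 CPM in siSCR. Gal3st1, the sulfatide enzyme gene, differed by -2.15, with 15.4 CPM in siHsc70 and 71.4 CPM in siSCR. Gjc3, a connexin gene, differed by -1.84, with 3.11 CPM in siHsc70 and 13.8 CPM in siSCR.

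The relatives of Mal and Cldn11 went in both directions. Of 21 measured genes for MARVEL domain proteins, claudins and other tight junction proteins, 12 had a difference below 0 and 3 were lower by 2-fold or more, while 6 were higher, against 5.14% lower and 2.29% higher of all measured genes. Their median was -0.072, but 0.72 among those with a mean of at least 5 CPM. Cmtm7, which encodes a MARVEL protein, was at 21.0 CPM in siHsc70 and 71.0 CPM in siSCR. Its relative Cmtm5 was at 10.3 CPM in siHsc70 and 24.7 CPM in siSCR. Cldn23, a claudin gene, was higher, with 12.5 CPM in siHsc70 and 4.002 CPM in siSCR. Plp2, which encodes another MARVEL protein, was at 18.9 CPM in siHsc70 and 7.48 CPM in siSCR.

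Mbp mRNA is carried along the cell processes and translated beside the growing sheath. Of 21 measured genes for this transport and translation, 20 had a difference below 0, with a median of -0.34. Only 2 (9.52%) were lower by 2-fold or more and 0 were higher, near the 5.14% and 2.29% of all measured genes. Fyn, the kinase that links axon contact to local Mbp translation, was at 517 CPM in siHsc70 and 1155 CPM in siSCR. Dynll2, a dynein light chain gene, was at 190 CPM in siHsc70 and 461 CPM in siSCR.

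Among 19 measured genes for paranodal and axon contact, 7 (36.8%) were lower by 2-fold or more and 0 were higher. Of all measured genes, 5.14% were lower and 2.29% higher. The median of the 19 was -0.69. Nfasc encodes neurofascin, the adhesion protein of paranodal loops. It was at 198 CPM in siHsc70 and 938 CPM in siSCR, 4.73-fold (4.56 to 4.90) lower in siHsc70, beside 4.64-fold (4.31 to 5.01) for Mag. Ncam1, a cell adhesion gene, was at 124 CPM in siHsc70 and 463 CPM in siSCR. Ank3, which encodes ankyrin G, was at 10.5 CPM in siHsc70 and 40.0 CPM in siSCR.

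Of 15 measured lineage transcription factor genes, 9 were lower by 2-fold or more and 0 were higher, against 5.14% and 2.29% of all measured genes. The median was -1.43, which was -0.75 on deposited FPKM with 7 lower. Besides Myrf and Sox10 the lower genes included Nkx2-2, a homeobox regulator of differentiation, with 35.5 CPM in siHsc70 and 199 CPM in siSCR. Sox10, Nkx2-2, Olig1 and Olig2 of this list are also among the 12 lineage markers counted above. Bcas1, another of those markers and lower by 2-fold or more, is also in the list of other myelin genes. These counts are therefore not separate.

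**Figure D5:**
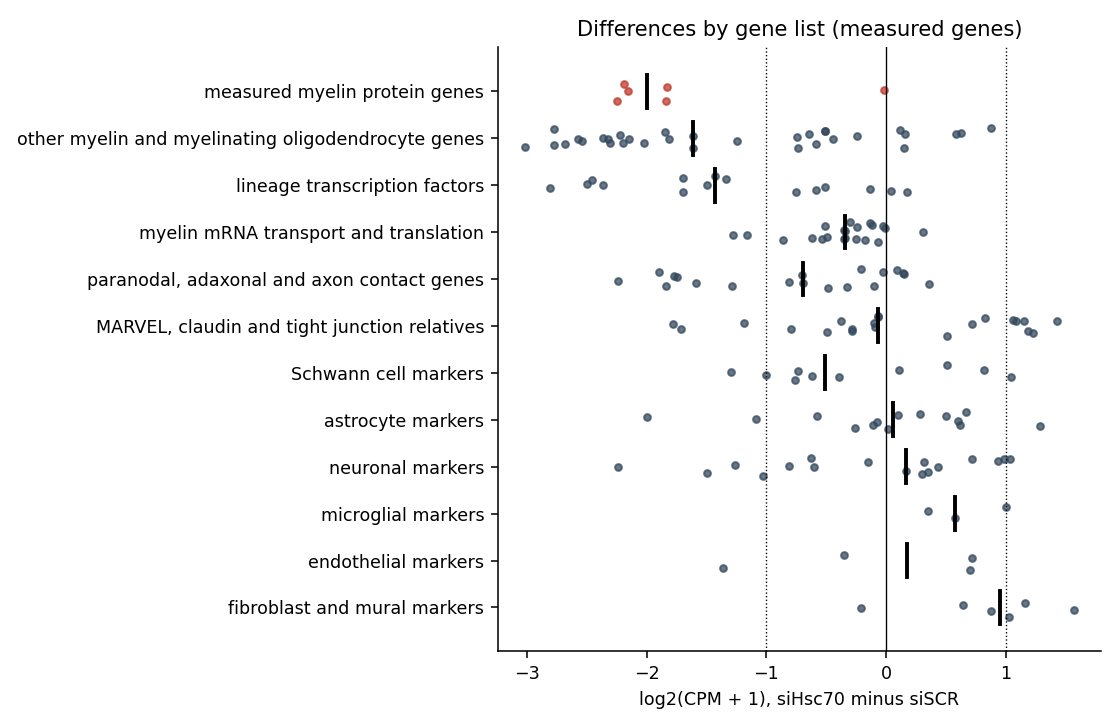
Difference in log2(CPM + 1), siHsc70 minus siSCR, of each measured gene (points) by gene list, with the list median as a black bar and dotted lines at 2-fold. The myelin protein genes (median -1.998), the other myelin genes (-1.61) and the lineage transcription factors (-1.43) lie furthest left, and fibroblast and mural markers (0.95) furthest right.

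Markers of other cell types were followed beside these results. Their summed levels cover every listed gene with a row, measured or not. The Schwann cell, the myelinating cell of peripheral nerve, also expresses Mbp. Of 10 measured Schwann cell markers, 2 were lower by 2-fold or more and 1 was higher, against 5.14% lower and 2.29% higher of all measured genes. The summed levels of the Schwann cell markers were 117 CPM in siHsc70 and 103 CPM in siSCR. Erbb3, a neuregulin receptor gene among them, was at 9.34 CPM in siHsc70 and 24.4 CPM in siSCR, and Dhh, a hedgehog ligand gene, at 46.4 CPM in siHsc70 and 22.0 CPM in siSCR.

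Of 14 measured astrocyte markers, 2 were lower and 1 was higher, against 5.14% lower and 2.29% higher of all measured genes. The median was 0.057, and the summed levels were 5099 CPM in siHsc70 and 5577 CPM in siSCR. Gfap, the astrocyte filament gene, was at 667 CPM in siHsc70 and 1416 CPM in siSCR. The water channel gene Aqp4 was at 20.6 CPM in siHsc70 and 85.0 CPM in siSCR. Clu, which encodes clusterin, was at 181 CPM in siHsc70 and 73.5 CPM in siSCR. Astrocyte markers thus moved in both directions.

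Of 17 measured neuronal markers, 4 (23.5%) were lower and 1 was higher, against 5.14% lower and 2.29% higher of all measured genes. The median was 0.17, with 8 of the 17 below 0. The summed levels were 743 CPM in siHsc70 and 1008 CPM in siSCR. A large part of these sums came from a single gene, Map2, at 340 CPM in siHsc70 and 526 CPM in siSCR. Dcx, a gene of young neurons, was at 6.23 CPM in siHsc70 and 33.2 CPM in siSCR. Elavl3, a neuronal RNA binding protein gene, was at 21.5 CPM in siHsc70 and 62.5 CPM in siSCR, and Syp, a synaptic vesicle gene, at 5.67 CPM in siHsc70 and 15.0 CPM in siSCR. Some others stood the other way. Snap25, a synaptic fusion gene, was at 20.1 CPM in siHsc70 and 10.03 CPM in siSCR. Gad2, a GABA synthesis gene, was at 10.6 CPM in siHsc70 and 4.88 CPM in siSCR. With differences of 0.93 for Snap25 and 0.98 for Gad2, neither was counted as higher. The 1 higher gene was Nefh, a neurofilament gene, with a count of only 40 in siHsc70 and 11 in siSCR. The neuronal median was -0.15 among markers with a mean of at least 5 CPM.

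Of 10 fibroblast and mural markers 6 were measured and 3 of these were higher, against 2.29% of all measured genes, with summed levels of 182 CPM in siHsc70 and 76.1 CPM in siSCR. The collagen gene Col1a1 was at 73.8 CPM in siHsc70 and 24.3 CPM in siSCR, and Col6a1 at 74.5 CPM in siHsc70 and 32.7 CPM in siSCR. Col3a1, another collagen gene, was scarce, at 1.83 CPM in siHsc70 and 2.29 CPM in siSCR. Of 14 microglial markers 3 were measured, with sums of 102 CPM in siHsc70 and 78.3 CPM in siSCR. The defining marker Aif1 had a count of 1 in siHsc70 and 0 in siSCR, while Cd68, a lysosomal gene of phagocytes, was at 4.34 CPM in siHsc70 and 1.66 CPM in siSCR. Of 10 endothelial markers 4 were measured, 2 of them below 0, with a median of 0.17 and sums of 12.2 CPM in siHsc70 and 13.2 CPM in siSCR. Kdr, a growth factor receptor gene among them, had a count of 5 in siHsc70 and 44 in siSCR, whereas Egfl7, an endothelial secreted protein gene, had 84 in siHsc70 and 48 in siSCR. The part of these cell types in the myelin gene differences was not tested.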

How the data were processed

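The series has a single expression table, whose column names give the siRNA of each of the 2 libraries. The authors deposited estimated counts per gene, which are not normalised and can be fractional, per the file headers. The deposited FPKM values are scaled for length and library size, and the deposited TPM values sum to 999999.4 in siHsc70 and 999999.8 in siSCR. The aligner, counting program, annotation and strand handling were not given in the sources used here, so antisense overlap cannot be told apart. A mouse build, mm39, stands in the submitters' processing notes, whereas 16783 of the gene IDs are rat RefSeq genes. Coordinates come only from RefSeq promoter windows (GRCr8).

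Estimated counts were rounded and scaled by TMM (edgeR 4.0.16, R 4.3.3), with factors of 0.992 for siHsc70 and 1.01 for siSCR. Differences use a pseudocount of 1 CPM, which understates those of scarce genes, and folds of single genes are ratios of CPM without it. Fold intervals are exact (Clopper-Pearson), level intervals exact Poisson, and intervals on ratios of folds a normal approximation on the log scale. PCR copies are not independent molecules. A count of 0 allows up to 3 counts, 0.167 CPM in siHsc70 and 0.156 CPM in siSCR. The procedure was tested on simulated Poisson counts. These hold counting error only and no variation between cultures, so that test says nothing about such variation.

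The myelin protein genes, lists, motifs and rules were chosen with earlier results of these data known. Named genes are the 8, Hspa8, up to 3 lower and 2 higher genes of each list past 2-fold with a mean of at least 5 CPM, otherwise the gene furthest from 0, and the 3 genes nearest the median. Enpp6, Olig1, Aif1, Bcas1, Map2, Nefh, Snap25, Gad2, Col3a1, Egfl7 and the genes of the closing observation were named after their values were seen. Sept4, Qki and Cldn25 were matched through RefSeq names.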

Additional observations from a re-analysis of the deposited data

How the results depend on the processing

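Over 10 alternatives (another pseudocount, minimum, scaling, unit or fold rule) the number of myelin protein genes at least 2-fold lower stayed at 5, except for 4 with a minimum mean of 5 CPM, which drops Mobp; the number higher stayed at 0. Their median, -1.998, was -2.31 with the deposited TPM, where the median of all genes was -0.13, and -1.83 with no minimum, which adds Mal and Opalin. The Mog difference ran from -0.21 (TPM) to 0.039 (upper-quartile scaling). With a pseudocount of 0.1 CPM Mobp was at -2.83, Mal at -1.52 and Opalin at -1.27. Hspa8, -1.46, was -1.40 under upper-quartile scaling and -1.60 with TPM. All genes at least 2-fold lower, 695, became 898 with the 0.1 pseudocount and 515 with FPKM. All genes at least 2-fold higher, 310, became 518 with the 0.1 pseudocount, 189 with TPM and 202 with FPKM. With FPKM, 3 MARVEL and claudin genes were higher.

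Of the cell type lists, lower Schwann cell markers numbered 1 under upper-quartile scaling, TPM or the 5 CPM minimum and 0 with FPKM, and higher ones 0 with TPM or FPKM. Higher neuronal markers numbered 2 with the 0.1 pseudocount or upper-quartile scaling and 0 with TPM, FPKM or the 5 CPM minimum. The 1 higher microglial marker, Cd68, was not called (0) with total count scaling, DESeq2 size factors, FPKM or the 5 CPM minimum. Lower endothelial markers numbered 0 with TPM, FPKM or the 5 CPM minimum, and higher ones 1 with the 0.1 pseudocount. Among list medians, those of the MARVEL and claudin relatives (0.72), the Schwann cell markers (0.06) and the neuronal markers (-0.15) changed sign with the 5 CPM minimum, that of the astrocyte markers (-0.067) with TPM and that of the endothelial markers (-0.11) with no minimum. The lineage factor median was -0.75 with FPKM, and that of the other myelin genes -1.02 with no minimum. Counts of 10 for Mobp, 5 for Mal and 4 for Opalin in siHsc70 limit their folds.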

Other observations

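Some myelin genes outside the 8 did not share their direction. Jam3, a junction adhesion gene, was at 182 CPM in siHsc70 and 118 CPM in siSCR, Gsn, the actin-severing gelsolin gene, at 334 CPM in siHsc70 and 223 CPM in siSCR, and Cd82, a tetraspanin gene, at 103.7 CPM in siHsc70 and 56.1 CPM in siSCR. Car2 and Tf, genes of carbonic anhydrase and transferrin, were close to level, with Car2 at 72.3 CPM in siHsc70 and 66.5 CPM in siSCR and Tf at 154 CPM in siHsc70 and 139 CPM in siSCR. Another 6 genes of that list were too scarce to be measured, as Mal and Opalin were. Hapln2, a nodal link protein gene, had a count of 4 in siHsc70 and 29 in siSCR, a ratio of 0.148 (0.0377 to 0.420), and Tmem88b a count of 4 in siHsc70 and 28 in siSCR, a ratio of 0.153 (0.0390 to 0.437). Ermn, a gene of late oligodendrocytes, had a count of 1 in siHsc70 and 9 in siSCR.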
